A study of Sus scrofa with 6 samples.

Results

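Laminins, nidogens and perlecan are the glycoproteins that, with collagen IV, make up the basement membrane around muscle fibres, capillaries and nerves. The genes described here are 8 of the 30476 genes in the count table, taken by their pig gene symbols: the laminin chains *LAMA4*, *LAMA5*, *LAMB1*, *LAMB2* and *LAMC1*, the nidogens *NID1* and *NID2*, and *HSPG2*, which encodes perlecan. RNA-seq was performed on longissimus dorsi, a muscle of the back, from 3 UCP1-KI pigs and 3 WT pigs, with 1 library per pig and all animals 6 months old. UCP1-KI (UCP1 KI below) stands for an adipocyte-specific knock-in of uncoupling protein 1, so that the transgene is meant to act in fat and the muscle is sampled as another organ. The WT animals carried no knock-in. The promoter of the knock-in, sex, litter and the number of founder lines were not given in the sources used here. *UCP1* itself was not analysed here. The study reports that its RNA-seq found no *UCP1* mRNA in the muscle of either group, so muscle counts of this gene would not tell the genotypes apart. The labels and the study's methods name no other agent or allele for either group. Some figure captions of the study, among them that of this RNA-seq comparison, speak of cold exposure, which neither the labels nor the methods describe. The study's discussion leaves cold acclimation of UCP1-KI pigs to later work. The temperature at which these pigs were kept is not stated in the sources used here.

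A laminin is a heterotrimer of an alpha, a beta and a gamma chain. The alpha 4 and alpha 5 chains are the alpha chains of the capillary wall, whereas the alpha 2 chain is the main one around the muscle fibre. Beta 1 or beta 2 completes the trimer with gamma 1, and beta 2 is known for its concentration at the neuromuscular junction. Nidogens bind the gamma 1 chain and link the laminin network to collagen IV, and perlecan carries heparan sulfate chains that hold growth factors. *LAMA2*, the alpha 2 chain gene, had no pig identifier under its symbol and was not analysed here.

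Total counts lay between 30220951 and 35066624 per pig, and values are given as CPM, counts per 1000000 after scaling each library with edgeR's TMM factors (0.781 to 1.18). The 20 most abundant genes took 56.5% of the counts in WT replicate 2 and 39.0% to 44.8% in the other pigs. Actin, creatine kinase and other fibre genes identified the tissue as muscle, with 8 of 14 listed fibre markers found under their symbol and a sum of 54429 to 95521 CPM in UCP1 KI pigs and 76882 to 110319 CPM in WT pigs. Reads per gene were counted in bulk tissue, where fewer cells of a type and less RNA per cell cannot be told apart.

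Transcripts of 7 of the 8 genes were lower on average in UCP1 KI muscle than in WT muscle, and the exception was *LAMC1*. A gene was counted as changed when its unadjusted p in the quasi-likelihood F test of edgeR was under 0.05 and the size of its log2 fold change was above 0.5. By this rule 1 of the 8 genes, *LAMA4*, fell, where 4.34% of the 13402 genes tested were lower and 8.19% changed in either direction. The median log2 fold change of the 8 genes was -0.52, beside -0.02 over all genes tested, and 51.3% of all genes tested had a value below 0. After Benjamini-Hochberg adjustment 0 of the genes tested had an adjusted p under 0.05 in edgeR (1100 had an unadjusted p under 0.05), and DESeq2 on the same genes gave 127. The groups did not overlap for *LAMA4* and *LAMB2*, 2 of the 8 genes, both with every UCP1 KI pig below every WT pig, where 7.69% of all genes tested had this order.

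**Figure D1:**
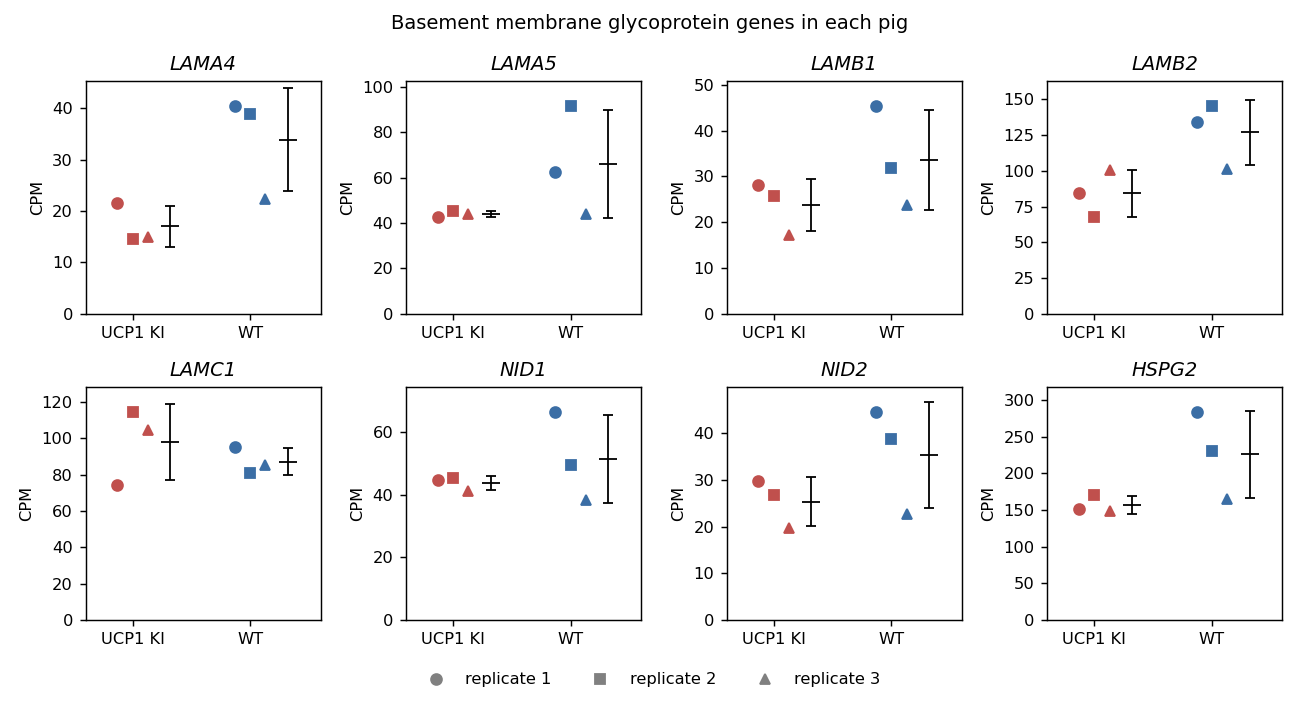
CPM of the 8 genes in each pig, with the symbol shape giving the replicate number and the black mark and bar the mean and SD of the 3 pigs of a group; every vertical axis starts at 0. WT replicates 1 and 2 lie above all UCP1 KI pigs for all genes but *LAMC1*, and WT replicate 3 lies close to the UCP1 KI pigs.

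*LAMA4* (ENSSSCG00000004425), the alpha chain of a laminin of vessel walls, spans bases 78071990 to 78224564 of chromosome 1 in the RefSeq annotation of Sscrofa11.1. Its level was 21.5, 14.6 and 14.9 CPM in UCP1 KI replicates 1 to 3 and 40.5, 38.9 and 22.4 CPM in WT replicates 1 to 3. All UCP1 KI pigs were thus below all WT pigs, although UCP1 KI replicate 1 and WT replicate 3 were close to each other. The group levels were 17.0 ± 3.94 CPM (SD, n = 3) and 33.9 ± 10.02 CPM (SD, n = 3). *LAMA4* fell by 0.998 on the log2 scale (standard error 0.31, 95% interval -1.71 to -0.28). Its unadjusted p in the quasi-likelihood F test of edgeR was 0.0126, and its adjusted p by Benjamini-Hochberg was 0.583. The fitted level in UCP1 KI pigs was 50.1% of that in WT pigs. The two-sided exact permutation test gave p = 0.1, which no comparison of 3 animals with 3 can go below. With single pigs left out the log2 fold change lay between -1.22 and -0.86, and *LAMA4* stayed past both limits in all 6 of these fits.

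*LAMA5* (ENSSSCG00000032761; chromosome 17, bases 61698370 to 61747795) encodes an alpha chain that is spread through the basement membranes of adult vessels. UCP1 KI pigs were at 42.7, 45.4 and 43.9 CPM and WT pigs at 62.5, 91.7 and 44.0 CPM. The UCP1 KI pigs lay within a narrow range and WT replicate 3 fell inside it, so the groups overlapped. The log2 fold change of -0.59 (standard error 0.30, 95% interval -1.27 to 0.10) had an unadjusted p of 0.0837 from edgeR. It was -0.28 without WT replicate 2 and -0.81 without WT replicate 3, where *LAMA5* passed both limits.

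The beta chains gave log2 fold changes of similar size. *LAMB2* (ENSSSCG00000011377; chromosome 13, bases 31738282 to 31750623), the beta 2 chain, was at 84.7, 67.4 and 100.3 CPM in UCP1 KI pigs and 134, 145 and 101.5 CPM in WT pigs. The groups were separated here by the small gap between UCP1 KI replicate 3 and WT replicate 3. Its log2 fold change was -0.59 (standard error 0.26, 95% interval -1.20 to 0.01), and the unadjusted p of 0.0535 from edgeR missed the limit (exact permutation p = 0.1). *LAMB2* passed both limits with DESeq2 (-0.60, unadjusted p = 0.0396) and when a gene needed 10 counts in all pigs to be tested (-0.60), as well as when either UCP1 KI replicate 3 (-0.74) or WT replicate 3 (-0.73) was removed, and lay at -0.47 without UCP1 KI replicate 2. For *LAMB1* (ENSSSCG00000015444; chromosome 9, bases 107670120 to 107747242), the beta 1 chain, the values were 28.2, 25.7 and 17.3 CPM in UCP1 KI pigs and 45.4, 31.9 and 23.7 CPM in WT pigs. WT replicate 3 was below UCP1 KI replicates 1 and 2. The log2 fold change was -0.51 (standard error 0.32, 95% interval -1.24 to 0.23) with an unadjusted p of 0.148 from edgeR, and lay between -0.70 without WT replicate 3 and -0.24 without WT replicate 1.

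*LAMC1* (ENSSSCG00000015555; chromosome 9, bases 124283668 to 124405967), the gamma 1 chain that all the trimers named above share, did not follow the other genes. Its level was 74.4, 115 and 105 CPM in UCP1 KI pigs and 95.4, 80.8 and 85.6 CPM in WT pigs. UCP1 KI replicate 2 was the highest pig and UCP1 KI replicate 1 the lowest, so that the WT pigs lay inside the range of the UCP1 KI pigs. The group levels were 97.9 ± 21.0 CPM (SD, n = 3) and 87.3 ± 7.42 CPM (SD, n = 3). The log2 fold change of 0.17 (standard error 0.25, 95% interval -0.41 to 0.74) had an unadjusted p of 0.520 from edgeR, and the interval contains both a rise and a fall. It was 0.02 without UCP1 KI replicate 2 and 0.43 with library size only.

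**Figure D2:**
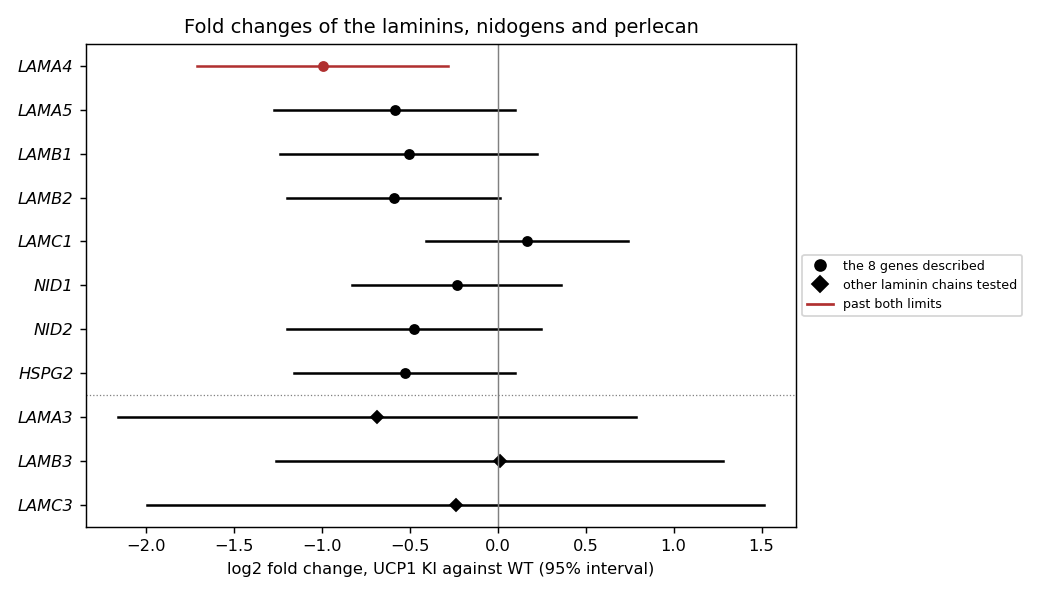
Log2 fold change of UCP1 KI against WT from edgeR (points) with its 95% interval (bars) for the 8 genes, above the dotted line, and for the 3 other laminin chains that were compared. Among the genes shown, the interval stays on one side of 0 for *LAMA4* alone, at -1.71 to -0.28.

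Of the nidogens, *NID2* (ENSSSCG00000005030; chromosome 1, bases 181699098 to 181773084) was at 29.7, 26.7 and 19.6 CPM in UCP1 KI pigs and 44.5, 38.7 and 22.7 CPM in WT pigs. Here too WT replicate 3 lay between the UCP1 KI pigs. The log2 fold change was -0.48 (standard error 0.31, 95% interval -1.20 to 0.24), with an unadjusted p of 0.164 from edgeR, and it passed both limits without WT replicate 3 (-0.71) but shrank to -0.28 without WT replicate 1 and to -0.33 without UCP1 KI replicate 3. *NID1* (ENSSSCG00000026819; chromosome 14, bases 55239327 to 55346948), the more widely studied nidogen, was at 44.6, 45.4 and 41.2 CPM in UCP1 KI pigs and 66.4, 49.6 and 38.4 CPM in WT pigs. WT replicate 3 was the lowest pig for this gene and WT replicate 1 the highest. Among the 7 genes with a lower mean in UCP1 KI pigs, *NID1* had the smallest log2 fold change, -0.23 (standard error 0.26, 95% interval -0.83 to 0.36, unadjusted p = 0.387 from edgeR). This value was -0.02 without WT replicate 1 and -0.01 with library size only.

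*HSPG2* (ENSSSCG00000003514; chromosome 6, bases 79849691 to 79958283), the perlecan gene, had 4672, 6080 and 5611 counts in UCP1 KI pigs and 10298, 6302 and 4947 counts in WT pigs. These correspond to 151, 171 and 149 CPM in UCP1 KI pigs and 284, 230.2 and 165 CPM in WT pigs. WT replicate 3 was below UCP1 KI replicate 2, and the other WT pigs were above all UCP1 KI pigs. The log2 fold change was -0.53 (standard error 0.27, 95% interval -1.16 to 0.10), with an unadjusted p of 0.0874 from edgeR. It lay between -0.71 without WT replicate 3, past both limits, and -0.34 without WT replicate 1.

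The pigs within the WT group differed by more than those within the UCP1 KI group for 6 of the 8 genes, by the ratio of the highest to the lowest pig. *LAMA5* had the widest such range, 2.08 in WT pigs against 1.06 in UCP1 KI pigs, and *LAMC1* and *LAMB2* were the 2 genes with the wider range in UCP1 KI pigs. WT replicate 1 was the highest of all pigs for 5 genes, WT replicate 2 for 2 and UCP1 KI replicate 2 for 1, *LAMC1*. WT replicate 3 was the lowest WT pig for 7 genes and below at least one UCP1 KI pig for 6. The summed level of the 8 genes was 477, 510.1 and 491 CPM in UCP1 KI pigs and 772, 707 and 503 CPM in WT pigs, with WT replicate 3 below UCP1 KI replicate 2. Averaged over the 8 genes, log2(CPM + 1) relative to each gene's mean over all pigs was -0.16, -0.19 and -0.30 in UCP1 KI replicates 1 to 3 and 0.48, 0.35 and -0.18 in WT replicates 1 to 3. WT replicate 3 thus stood with the UCP1 KI pigs in these genes. Without this pig 5 of the 8 genes passed both limits, namely *LAMA4*, *LAMA5*, *LAMB2*, *NID2* and *HSPG2*, and 11.12% of all genes tested changed in that fit.

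**Figure D3:**
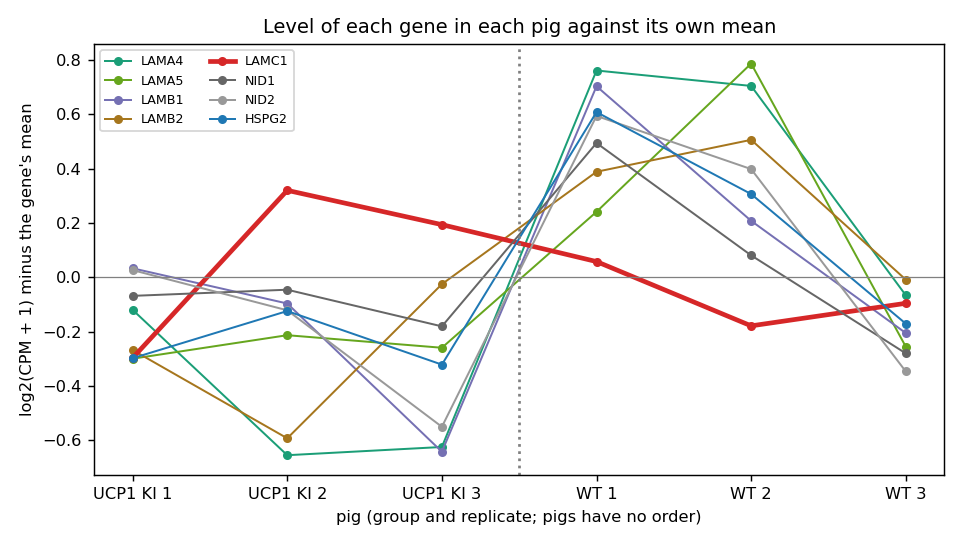
Level of each of the 8 genes in each pig, as log2(CPM + 1) minus the mean of that gene over the 6 pigs; lines join the values of 1 gene and imply no order of pigs. Most genes are high in WT replicates 1 and 2, while *LAMC1* (thick line) is highest in UCP1 KI replicates 2 and 3.

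Ratios of counts within a pig do not depend on how libraries are scaled against each other, and 4 such ratios were compared with two-sided exact permutation tests. *LAMA4* counts were 0.505, 0.321 and 0.339 times those of *LAMA5* in the UCP1 KI group and 0.648, 0.424 and 0.509 times in the WT group. On the log2 scale the mean ratio differed by -0.45, being lower in UCP1 KI pigs, and the groups overlapped (exact p = 0.2, and 0.4 after Benjamini-Hochberg adjustment over the 4 ratios). The ratio of *NID1* to *NID2* was 1.502, 1.70 and 2.10 in the UCP1 KI group against 1.49, 1.28 and 1.69 in the WT group, a log2 difference of 0.24 (exact p = 0.2, adjusted 0.4). For *LAMB1* to *LAMB2* the log2 difference was 0.11 (exact p = 0.9), and its sign changed when single pigs were left out (-0.11 to 0.46). *HSPG2* to *AGRN*, the gene of agrin, another heparan sulfate proteoglycan of the muscle basement membrane, differed by 0.20 (exact p = 0.4), with 14.5, 10.6 and 12.5 in the UCP1 KI group against 10.6, 10.8 and 10.9 in the WT group. None of these ratios separated the groups.

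After its values were seen, *LAMC1* was also set against each of the other 7 genes within each pig, as a description without a test. Its counts were 1.61, 2.72 and 2.69 times the geometric mean of the other 7 in the UCP1 KI group and 1.28, 1.17 and 1.93 times in the WT group. WT replicate 3 was above UCP1 KI replicate 1, so this ratio overlapped. Of the 7 single ratios, 1 did not overlap, that to *LAMB2*, at 0.878, 1.70 and 1.05 in the UCP1 KI group against 0.712, 0.556 and 0.844 in the WT group.

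The precision of the fold changes was similar across the 8 genes, with 95% intervals that reached 0.57 (*LAMC1*) to 0.73 (*LAMB1*) to either side on the log2 scale. The 7 genes that did not pass the test in edgeR are not shown to be equal in both groups. Of the 8 intervals, that of *LAMA4* was the only one without 0. Its log2 fold change was -0.77 with library size only, and between -1.01 and -0.97 under DESeq2, median-of-ratios factors, both other count filters and a block for the replicate number. *HSPG2* lay between -0.54 and -0.50 under the latter settings, *NID2* between -0.49 and -0.44 and *LAMB1* between -0.52 and -0.49. Scaling by library size only moved all 8 values upwards together, to -0.30 for *LAMA5*, -0.33 for *LAMB2*, -0.29 for *HSPG2* and 0.43 for *LAMC1*, while the median of all genes rose from -0.02 to 0.24, above 7 of the 8 genes. *LAMC1* thus remained the only one of the 8 above that median in each of the 13 fits.

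**Figure D4:**
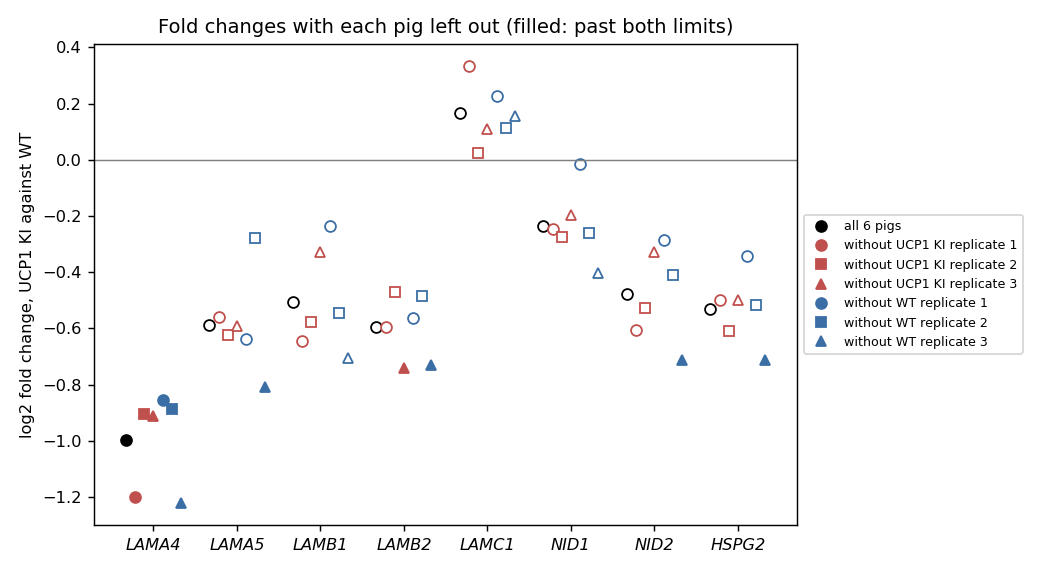
Log2 fold change of each of the 8 genes with all 6 pigs (black) and after removal of a single pig (coloured), filled where the gene passed both limits. *LAMA4* is filled in all fits, and 5 genes are filled without WT replicate 3.

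Of 6 other laminin chains listed, among them those of epithelial and embryonic laminins, 3 could be tested. By both limits 0 of these 3 changed, and 0 had an unadjusted p under 0.05, in edgeR and in DESeq2 alike. *LAMB3*, a beta chain gene of epithelial laminin, was at 1.84, 0.813 and 0.980 CPM in UCP1 KI pigs and 1.08, 0.657 and 1.87 CPM in WT pigs, and *LAMA3*, an alpha chain gene of epithelial laminin, at 1.16, 0.954 and 3.52 CPM against 3.997, 3.80 and 1.301 CPM. Their log2 fold changes were 0.01 (standard error 0.55) and -0.69 (standard error 0.63). *LAMC3* had 10, 10 and 14 counts in UCP1 KI pigs and 6, 22 and 6 counts in WT pigs (log2 fold change -0.24, standard error 0.75). *LAMA1* and *LAMB4* did not pass the filter on counts. They had 2, 0 and 8 counts and 0, 0 and 0 counts in UCP1 KI pigs, and 15, 10 and 6 counts and 2, 0 and 0 counts in WT pigs. When all genes with any count were fitted, *LAMA1* differed by -1.74 on the log2 scale with a standard error of 1.24, and its unadjusted p of 0.190 from edgeR missed the limit. *LAMA1* overlapped between the groups through UCP1 KI replicate 3. For *LAMB4*, the limit that a count of 0 allows in a pig, 3 counts, is 0.0795 to 0.1096 CPM for counting error only, and all pigs lay under it, so no fold is given.

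Around these glycoproteins, collagen IV forms the other network of the basement membrane, and collagens XV and XVIII are associated with it. Of these 8 collagen genes 7 could be tested, and their median log2 fold change was -0.89. The 2 collagen genes that fell were *COL4A5* (-1.45, standard error 0.50) and *COL18A1* (-1.15, standard error 0.38), with unadjusted p values of 0.0207 and 0.0180 from edgeR. With DESeq2 3 fell, where 719 of the 13402 genes tested fell. For *COL18A1* the groups overlapped, UCP1 KI replicate 1 (9.25 CPM) being above WT replicate 3 (8.94 CPM). Both missed the p limit when UCP1 KI replicate 2 or either of WT replicates 1 and 2 was removed, *COL18A1* also without UCP1 KI replicate 3, and *COL4A5* also with a replicate block. Among 15 other basement membrane proteins tested, 7 fell and 0 rose (4.34% of all genes tested fell), with a median of -0.72. The smallest p was that of *SPARC*, a collagen-binding matricellular protein (-0.92, standard error 0.27, unadjusted p = 0.0105 from edgeR), which passed both limits with each pig left out. *NPNT* (-1.57), *SMOC2* (-1.36) and *PAPLN* (-1.02) each missed the p limit in at least one fit without a pig, *NPNT* without UCP1 KI replicate 2 or WT replicate 3, *SMOC2* without WT replicate 2, and *PAPLN* without UCP1 KI replicates 1 or 2 or WT replicates 1 or 3. *AGRN* fell by 0.72 (unadjusted p = 0.0449 from edgeR) and missed it without UCP1 KI replicates 1 or 3 or WT replicates 1 or 2. With library size only *SMOC2*, *PAPLN* and *AGRN* also missed it, and *AGRN* did so with a replicate block.

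Cells hold laminin through integrins, dystroglycan and the Lutheran glycoprotein. Of 8 such receptor genes tested 2 fell and 0 rose, with a median log2 fold change of -0.59, where 4.34% of all genes tested fell. With DESeq2 4 fell, where 719 of the 13402 genes tested fell. For 4 of the 8 every UCP1 KI pig was below every WT pig, an order that 7.69% of all genes tested had. *ITGA3*, the integrin alpha 3 gene, had the largest difference (-2.08, standard error 0.59, unadjusted p = 0.00815 from edgeR) and passed both limits with each pig left out. *BCAM*, the Lutheran glycoprotein gene and a receptor of the laminin alpha 5 chain, was at 91.8, 55.8 and 83.8 CPM in UCP1 KI pigs and 128, 125 and 105 CPM in WT pigs. Unlike *LAMA5*, it had no overlap between the groups. The difference of -0.63 (standard error 0.26, unadjusted p = 0.0446 from edgeR) missed the p limit without UCP1 KI replicates 2 or 3 or WT replicates 1 or 2, with all genes that had any count, and with library size only. *DAG1*, the dystroglycan gene, was singled out after its values were seen, since WT replicate 2 had 291 counts where the other pigs had 3782 to 5839, and its log2 fold change was 0.42 with all pigs and -0.11 without that pig.

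Dystroglycan binds laminin through a sugar chain, and of 11 enzymes of that chain tested 1 rose and 0 fell (median log2 fold change 0.12). The gene that rose was *POMK*, a kinase of the core sugar (0.79, standard error 0.24, unadjusted p = 0.0107 from edgeR), which passed both limits with each pig left out, where 3.84% of all genes tested were higher. Of 16 enzymes that build, trim or cut heparan sulfate, as carried by perlecan, 0 passed both limits and 0 had an unadjusted p under 0.05 in edgeR and in DESeq2 alike (median -0.17). *SULF2*, a sulfatase that edits these chains outside the cell, had the smallest p among them, 0.0857 unadjusted from edgeR, and a log2 fold change of -0.84. It passed both limits without WT replicate 3 (-1.15) and was at -0.32 without WT replicate 1. Over these 6 lists 60 genes could be tested, of which 11 were lower and 1 higher in UCP1 KI pigs, beside 4.34% lower and 3.84% higher over all genes tested.

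**Figure D5:**
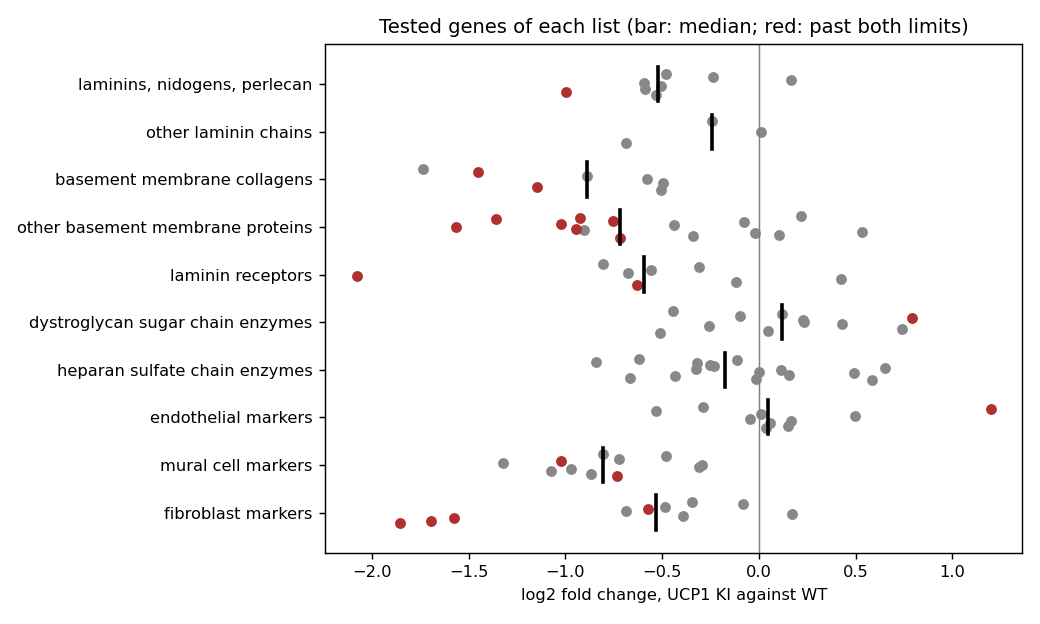
Log2 fold change of UCP1 KI against WT for each tested gene (points; red where past both limits) of the 8 genes, of 6 comparison lists and of 3 marker lists, with the median of each list as a bar. The medians are -0.52 for the 8 genes, -0.89 for the basement membrane collagens, -0.81 for mural cell markers and 0.05 for endothelial markers. The collagen median is the value of *COL4A3*, a gene at 0.224 to 1.27 CPM.

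Endothelial cells, mural cells (pericytes and smooth muscle) and fibroblasts all make these proteins, so their markers were set beside the 8 genes. By both limits 4.34% of all genes tested fell and 3.84% rose in edgeR. Of 10 endothelial markers tested 1 rose, *TEK*, the angiopoietin receptor gene, and 0 fell. Their summed level was 438 to 761 CPM in UCP1 KI pigs and 409 to 756 CPM in WT pigs. Of 11 mural cell markers 2 fell, *NOTCH3* and *ABCC9*, with sums of 384 to 547 CPM in UCP1 KI pigs and 501 to 1012 CPM in WT pigs. Of 10 fibroblast markers 4 fell, *COL1A1*, *COL1A2*, *COL3A1* and *LUM*, with sums of 298 to 483 CPM in UCP1 KI pigs and 786 to 1262 CPM in WT pigs. The fibroblast sums did not overlap between the groups, whereas the endothelial and mural sums did. Collagen genes weighed on the fibroblast sums, with *COL3A1* at 178, 49.3 and 188 CPM in UCP1 KI pigs and 349, 552 and 334 CPM in WT pigs. The fibroblast markers that did not pass both limits had log2 fold changes from -0.69 (*FBN1*) to 0.17 (*DPT*), with *PDGFRA* at -0.08. All 11 mural and 9 of the 10 fibroblast markers had a log2 fold change below 0, beside 51.3% of all genes tested. With DESeq2 3 mural and 5 fibroblast markers fell and 1 endothelial marker rose, where 719 of the 13402 genes tested fell and 590 rose. Of 10 leukocyte markers 9 had a log2 fold change above 0, with a median of 0.79, and *CD79A*, at 73.7 to 113 CPM over the 6 pigs, made up most of their sum. The 6 Schwann cell markers gave 0 changes and sums of 65.8 to 70.6 CPM in UCP1 KI pigs and 64.7 to 89.0 CPM in WT pigs. Adipocyte, leukocyte and red blood cell markers gave 0, 2 and 0 changes in edgeR, the 2 being *CD3E* and *CD2*, both higher. These rested mainly on UCP1 KI replicate 2, with *CD3E* at 2.91, 7.04 and 1.03 CPM in UCP1 KI pigs and 1.27, 0.621 and 1.17 CPM in WT pigs, and *CD2* at 3.46, 8.19 and 0.715 CPM against 0.910, 0.730 and 0.534 CPM. For both genes the groups overlapped through UCP1 KI replicate 3. In DESeq2 the numbers were 0, 3 and 2, and the Schwann cell markers again gave 0; in both tools these counts equal those at an unadjusted p under 0.05. Their sums were 135 to 161, 101 to 204 and 11.4 to 76.0 CPM in UCP1 KI pigs and 99.9 to 315, 104 to 152 and 105 to 180.2 CPM in WT pigs, so that the red blood cell sums did not overlap either. All markers found under their symbols had counts in at least one pig, and the part of any of these cells in the values of the 8 genes was not tested.

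Genes with a profile over the 6 pigs most like the mean profile of the 8 genes were sought among 7587 other genes with a symbol and a mean of at least 5 CPM. The measure was the root mean square difference between log2(CPM + 1) values centred on each gene's mean. The 5 nearest were *GATA2* (0.05), *SMTN* (0.05), *ALDH1L2* (0.06), *NET1* (0.08) and *NR2C1* (0.09), and the median over the genes compared was 0.47. *GATA2*, a transcription factor gene, was at 11.3, 11.8 and 9.88 CPM in UCP1 KI pigs and 19.3, 17.5 and 11.7 CPM in WT pigs. Its WT replicate 3 was the lowest WT pig and lay below UCP1 KI replicate 2, which follows from its choice by likeness to the mean profile. Of the 8 genes themselves, which enter that mean, *HSPG2* was nearest to it (0.08) and *LAMC1* farthest (0.41). Of the 7587 other genes, 4 were nearer to the mean than *HSPG2*, 1136 nearer than *LAMA4* and 2701 nearer than *LAMC1*.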

How the data were processed

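RNA from the longissimus dorsi of 3 UCP1-KI and 3 WT pigs was sequenced as paired ends from mRNA libraries. Per the study's methods and the submitters' processing notes, reads were checked with FastQC 0.11.2, trimmed with Trimmomatic 0.36, mapped with HISAT2 2.0 and quantified with StringTie 1.3.3b, and the authors tested counts with DESeq2 1.12.4. The notes name the build Sscrofa11.1, while the annotation release, the counting program and strand use are not given in the sources used here. The authors deposited raw counts per Ensembl gene with no normalization, in 1 column per pig. Without strand, reads of overlapping genes cannot be told apart. The labels call the libraries of a group replicates without naming the animals, so each is written here as a pig, and p-values measure only the spread between these samples, which may be technical.

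Differences were tested with edgeR 4.0.16 under R 4.3.3: filterByExpr defaults, TMM factors, genotype as the only term and two-sided quasi-likelihood F tests, with Benjamini-Hochberg adjustment over all 13402 genes kept. The limits of p and fold change are those of the study, whose methods do not say whether p was adjusted. The standard error is the log2 fold change divided by the square root of F. Exact permutation tests of log2(CPM + 1) enumerated all 20 assignments. Symbols came from a table of Ensembl names (14864 identifiers matched) and positions, matched by current symbol, from a RefSeq table of Sscrofa11.1, whose gene ends can differ from those used for counting. That table gives LAMB2 as an older name of LAMC1. The planned ratio of LAMA4 to LAMA2 could not be computed. No sequences are shown.

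The 8 genes, the comparison lists, the markers and the rules were chosen with earlier results of these data known. A gene of the comparison lists is not reported here and was left out of their counts. All 8 genes and the laminin chains compared were named; in other lists the genes past both limits, at most 4 by smallest p, or else the gene with the smallest p. AGRN was named for its ratio, and DAG1, COL4A1, COL4A2, COL4A3 and the marker genes after their values were seen. Alternatives were DESeq2 1.42.0; scaling by median-of-ratios factors or by library size only; a filter that kept every gene counted at all, or only those with 10 counts in all pigs; a block for the replicate number; removal of a single pig; and no limit on the fold change. The procedure was tested on simulated data. The labels number the pigs 1 to 3 in each group without saying that a number marks a litter or batch.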

Additional observations from a re-analysis of the deposited data

How the results depend on the processing

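In each of the 13 fits, *LAMA4* passed both limits, 7 of the 8 genes had a log2 fold change below 0 and *LAMC1* one above 0. The number of the 8 genes past the limits was 2 with DESeq2 (where 9.77% of all genes tested changed) and 2 with at least 10 counts in every pig (8.47%), *LAMB2* being the added gene, and 1 to 5 with each pig left out. Of the 96 single values of these genes under other settings, 89 stayed on their side of the limits, 7 crossed to the changed side and 0 changed sign. Library size only raised the median of all genes to 0.24 and left 17.3% of the changed genes lower in place of 53.1%. The median of the 8 genes was then -0.29, which is -0.53 relative to all genes beside -0.50 with TMM factors, and 7 genes of the comparison lists passed in place of 12. With each pig left out, that number was 6 (without UCP1 KI replicate 2) to 17 (7 without WT replicate 2), the median of the 8 genes lay between -0.71 and -0.31, and 678 (without UCP1 KI replicate 2) to 1541 (without WT replicate 3) genes changed in all, beside 1097. *DAG1* changed sign without WT replicate 2 (-0.11) and lay between -0.11 and 0.97 with single pigs left out. The log2 differences of the ratios lay between -0.65 and -0.29 for *LAMA4* to *LAMA5*, 0.11 and 0.35 for *NID1* to *NID2*, -0.11 and 0.46 for *LAMB1* to *LAMB2*, and 0.09 and 0.32 for *HSPG2* to *AGRN*. With the replicate block 1114 genes changed, 1 of the 8 genes (*LAMA4*) among them, and the median of the 8 was -0.49. Deviations from the group means correlated at 0.00 to 0.28 between pigs of the same number, and 2 of 6 pigs correlated best with their own number, so the numbers were not taken to pair the pigs. The cause of these changes was not tested.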
